A study of Fundulus heteroclitus with 15 samples.

Results

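The enzymes described here build and modify fatty acids: they make acetyl-CoA, carboxylate it, assemble the saturated chain, lengthen it and insert double bonds. They were found by name on an array of mummichog (Fundulus heteroclitus) liver transcripts, as every probe named for fatty acid synthase, acetyl-CoA carboxylase, acetyl-coenzyme A synthetase, ATP-citrate synthase, a desaturase, or elongation of very long chain fatty acids. The names took in 10 of 7152 probes. They carry 6 of the 3276 gene names on the array (hypothetical and unnamed proteins left out) and come from 9 contigs of its transcript collection, and 0 probes were named for ATP-citrate synthase. Of the 10 probes, 8 gave a signal well above background on all 15 arrays and were tested. The other 2 did so on 0 of 15 arrays and were not.

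Adult female mummichog, a small estuarine killifish, were kept for 14 days in water without added hormone (control, 0 ng/L) or with 17α-ethinylestradiol (EE2), a synthetic estrogen, at 50 ng/L or 250 ng/L. No genotype, strain, transgene or deletion was named in the labels. Liver RNA was labelled with the dye Cy3 and hybridised to 15 Agilent 1-colour arrays, 5 per group, which the labels call biological replicates. The labels do not say whether an array held RNA of a single fish, so SDs and p-values measure the spread between arrays. They give no replicate numbers either. The numbers used below were given here, in the order of the samples within each group, and link no arrays between groups.

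A level here is the log2 of a probe's processed signal relative to the 75th percentile of the same array, so that a difference of 1 is 2-fold. The 75th percentile ran from 543 to 3575 signal units over the arrays, and 75.6% to 91.7% of probes were well above background. Over all probes, any pair of arrays within a group had r = 0.953 to 0.984, and pairs from unlike groups had r = 0.949 to 0.979. The arrays lay on 2 slides, slide 1 holding 2 arrays of control, 2 of 50 ng/L and 3 of 250 ng/L and slide 2 holding 3, 3 and 2. All 9 genes taken as hepatocyte markers were well above background on every array, with a mean level of 5.74 to 6.69. Vitellogenin, the egg yolk precursor that fish liver makes under estrogen, rose on 8 of 9 probes at 250 ng/L (by 4.01 to 8.92) and on 7 of 9 at 50 ng/L (by 2.90 to 6.33), both against control. In whole liver, fewer cells of a type and less RNA per cell cannot be told apart.

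Fatty acid synthesis in liver begins with acetyl-CoA in the cytosol. Acetyl-CoA carboxylase turns part of it into malonyl-CoA, and fatty acid synthase condenses both into palmitate, drawing reducing power from NADPH. Desaturases in the endoplasmic reticulum then make monounsaturated chains (the delta-9 or acyl-CoA desaturases) or, from dietary precursors, the long polyunsaturated chains that fish tissues hold in quantity (the delta-5 and delta-6 desaturases). In egg-laying vertebrates the liver loads lipid onto vitellogenin and lipoproteins that are carried to the ovary.

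A single member of the set rose by the test at the higher concentration, and no member did at the lower one. Cytoplasmic acetyl-CoA synthetase, which makes acetyl-CoA from free acetate, was 6.06-fold higher at 250 ng/L than in control on 1 of its 2 probes. The delta-5/delta-6 desaturase, the second acetyl-CoA synthetase probe and 1 of the acyl-CoA desaturase probes had shifts of 1.20 to 2.16 on the log2 scale at 250 ng/L and missed the threshold when adjusted over all probes. Fatty acid synthase had a shift of 1.02 that missed it as well. Acetyl-CoA carboxylase 1 was the 1 member with a shift below 0.

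Cytoplasmic acetyl-CoA synthetase was measured by probes at bases 583 to 639 and 492 to 544 of the same contig (An_u_3541), called A and B below. On probe B the 5 levels were -6.0, -3.09, -5.66, -4.87 and -4.95 in control, -4.51, -4.60, -3.36, -3.03 and -3.82 at 50 ng/L, and -1.43, -2.11, -3.10, -3.10 and -1.83 at 250 ng/L. Of the controls, 4 lay below every array of 250 ng/L, and control replicate 2 lay just above the 2 lowest arrays of that dose, so that the groups overlapped by 1 control array. The means were -4.91 ± 1.13 in control, -3.87 ± 0.69 at 50 ng/L and -2.31 ± 0.76 at 250 ng/L (SD, n = 5 each). Probe B was the dimmer of the 2 probes. On the control arrays the lowest level that counted as above background was -7.66 to -6.86, by array. For control replicate 1, at -6.0 on probe B, it was -7.45. Probe B rose by 2.60 ± 0.51 at 250 ng/L against control (SE; 6.06-fold; 95% confidence interval 1.51 to 3.69; limma adjusted p = 0.00857). Only 64 of the 6145 probes tested had a larger shift in that comparison. At 50 ng/L against control the shift was 1.05 ± 0.51 (limma adjusted p = 0.999), and at 250 ng/L against 50 ng/L it was 1.55 ± 0.51 (limma adjusted p = 0.301), so the middle level was not set apart from either neighbour by the adjusted test.

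On probe A the means followed the same order of doses. Its levels were -3.49, -1.70, -3.49, -4.17 and -3.43 in control, -3.58, -3.62, -2.12, -1.86 and -2.45 at 50 ng/L, and -0.53, -0.82, -2.53, -2.04 and -1.44 at 250 ng/L. Control replicate 2 was again the highest of its group, above 2 arrays of 250 ng/L, and the remaining controls lay below all of them. The shift at 250 ng/L against control was 1.78 ± 0.50 (3.45-fold; 95% confidence interval 0.72 to 2.85; limma adjusted p = 0.0857). The probes differed in call but not in sign, and their 95% confidence intervals overlapped. The 2 spots of a probe on an array differed by a median of 0.10 for probe B and 0.07 for probe A, and by at most 0.92 for B and 0.30 for A. For probe B the widest differences were on 250 ng/L replicates 5 (0.92) and 2 (0.70), about as large as the SD of that group (0.76). The call of probe B was kept without replicate 5 and without replicate 2 of that dose, left out 1 at a time.

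**Figure D1:**
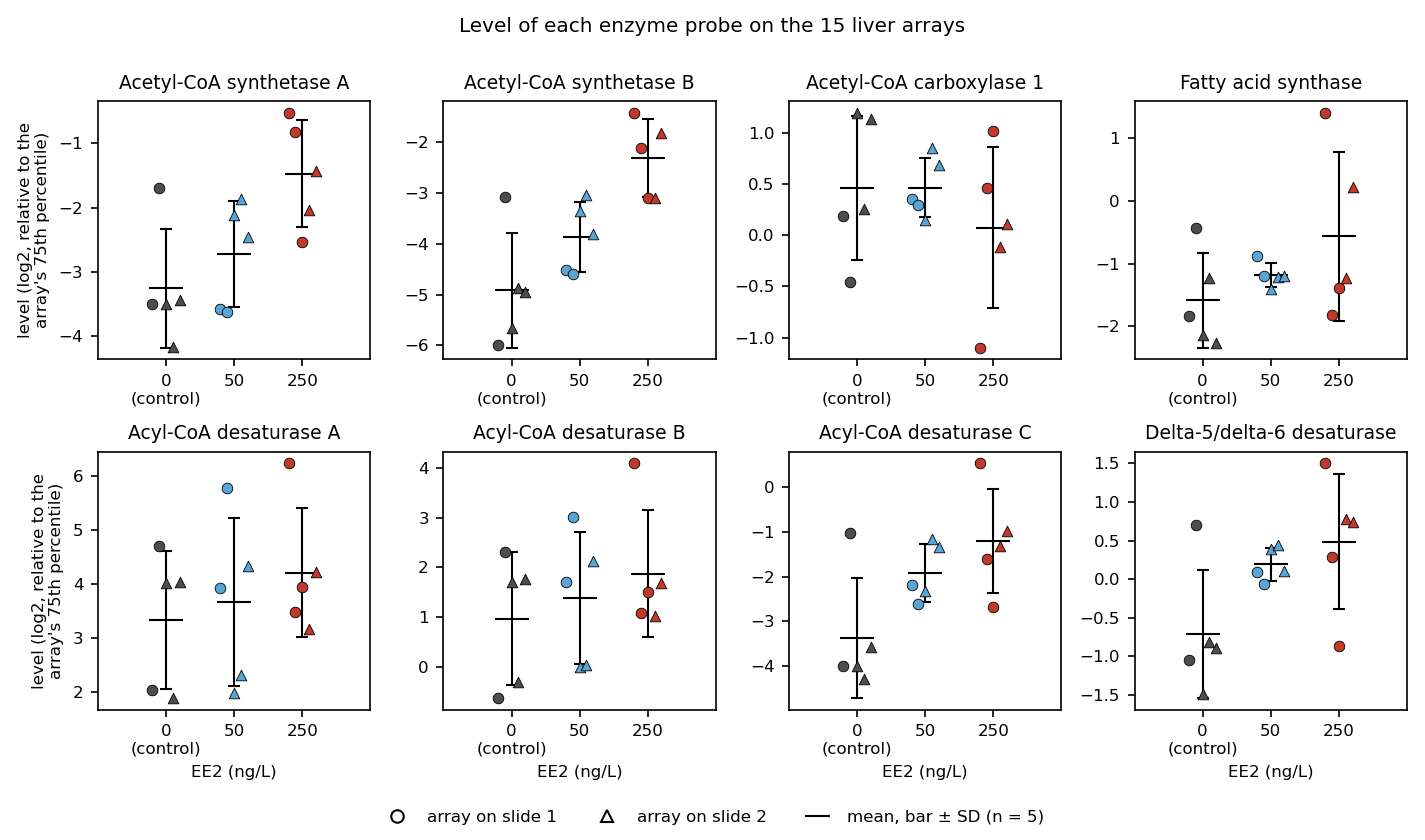
Level of each of the 8 tested probes on every array (log2, relative to the array's 75th percentile), by EE2 concentration in ng/L; circles are arrays of slide 1, triangles arrays of slide 2, and bars show the mean ± SD of 5 arrays. For acetyl-CoA synthetase B the 250 ng/L arrays sit between -3.10 and -1.43 and 4 of the 5 controls sit between -6.0 and -4.87, with control replicate 2 at -3.09.

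The shift of acetyl-CoA synthetase B had the same sign on both slides. Within slide 1 it was 2.33 at 250 ng/L against control (limma adjusted p = 0.416, from 3 against 2 arrays), and within slide 2 it was 2.70 (limma adjusted p = 0.0291, from 2 against 3 arrays). With slide as a block it was 2.62 (limma adjusted p = 0.0146). For probe A the shift was 1.30 within slide 1 and 1.96 within slide 2 (limma adjusted p = 0.579 and 0.0337). At 50 ng/L against control, the shift of probe B was -0.02 within slide 1 and 1.76 within slide 2. That of probe A was -1.0 and 1.55, and none of these passed the threshold. The controls of slide 1 were at -6.0 and -3.09 on probe B and at -3.49 and -1.70 on probe A, the second of each being replicate 2. A difference between the slides was not tested.

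Acetyl-CoA carboxylase 1 (bases 361 to 415 of contig An_u_3540) makes malonyl-CoA, the committed step of fatty acid synthesis. Its levels were 0.18, -0.46, 1.19, 0.25 and 1.14 in control, 0.35, 0.30, 0.15, 0.85 and 0.68 at 50 ng/L, and -1.10, 0.46, 1.02, -0.12 and 0.11 at 250 ng/L. The 50 ng/L arrays lay inside the range of the controls, as did 4 of the arrays at 250 ng/L, while replicate 1 of that dose lay below all controls. The shift at 250 ng/L against control was -0.39 ± 0.38 (95% confidence interval -1.19 to 0.41; limma adjusted p = 0.725). The shift at 50 ng/L was 0.00 ± 0.38 (95% confidence interval -0.80 to 0.80). Both intervals include changes in either direction. By slide, the shift at 250 ng/L was 0.27 within slide 1 and -0.86 within slide 2, so its sign was not settled.

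Fatty acid synthase (bases 416 to 474 of contig An_u_10049) is the multifunctional enzyme that assembles palmitate. Its levels were -1.83, -0.44, -2.15, -1.23 and -2.27 in control, -0.88, -1.20, -1.41, -1.21 and -1.21 at 50 ng/L, and 1.40, -1.82, -1.40, -1.24 and 0.23 at 250 ng/L. At 250 ng/L replicates 1 and 5 stood above every other array of the study, while the other 3 of that dose lay within the range of the controls. The means were -1.58 ± 0.76 in control, -1.18 ± 0.19 at 50 ng/L and -0.57 ± 1.34 at 250 ng/L (SD, n = 5 each). The shift was 1.02 ± 0.52 at 250 ng/L (2.03-fold; 95% confidence interval -0.09 to 2.13; limma adjusted p = 0.434) and 0.40 ± 0.52 at 50 ng/L (limma adjusted p = 0.999), both against control. Without 250 ng/L replicate 1 the shift at 250 ng/L was 0.53, the lowest value over the fits that left out 1 array. Within slide 1 it was 0.53 and within slide 2 it was 1.38.

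Acyl-CoA desaturase, the stearoyl-CoA or delta-9 desaturase that turns stearate into oleate, had 4 probes on 4 contigs. They are called A (bases 190 to 249 of contig AN_v_3881), B (433 to 484 of AN_v_3870), C (237 to 296 of An_u_3866) and D (233 to 282 of An_u_3890). The files do not say whether the contigs come from different genes, alleles or ends of 1 transcript, and no genome was used. Probe D was well above background on 0 of 15 arrays. Its levels of -9.71 to -8.18 lay below the lowest level that counted as above background on an array (-8.03 to -6.15, by array), and no fold is given for it.

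At 250 ng/L against control, desaturase C had the largest shift of the set after acetyl-CoA synthetase B. Its levels were -3.99, -1.02, -3.99, -4.29 and -3.57 in control, -2.19, -2.60, -2.32, -1.15 and -1.33 at 50 ng/L, and 0.54, -1.60, -2.67, -1.32 and -0.99 at 250 ng/L. Of the controls, 4 lay below every array of both EE2 groups. Control replicate 2 lay above all arrays of 50 ng/L and above 3 of the 5 arrays of 250 ng/L. The shift was 2.16 ± 0.63 at 250 ng/L against control (4.48-fold; 95% confidence interval 0.82 to 3.50; limma adjusted p = 0.0958). The shift at 50 ng/L against control was 1.45 ± 0.63 (2.74-fold; 95% confidence interval 0.11 to 2.79; limma adjusted p = 0.999). Between the doses it was 0.71 ± 0.63 (limma adjusted p = 0.865). Against control, the shift at 250 ng/L was 1.26 within slide 1 and 2.80 within slide 2. That at 50 ng/L was 0.11 within slide 1 and 2.35 within slide 2. The controls of slide 1 were at -3.99 and -1.02 (replicate 2), and a difference between the slides was not tested.

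Desaturases A and B had smaller measured shifts than C, and neither passed the test. On probe A the levels were 2.05, 4.70, 4.02, 1.90 and 4.03 in control, 3.92, 5.78, 1.98, 2.32 and 4.34 at 50 ng/L, and 6.23, 3.48, 3.94, 3.18 and 4.22 at 250 ng/L. The 3 groups overlapped widely: 2 control arrays and 2 arrays of 50 ng/L stood well below the rest, and the highest array was replicate 1 of 250 ng/L. The shift at 250 ng/L against control was 0.87 ± 0.77 (95% confidence interval -0.78 to 2.52; limma adjusted p = 0.697) on probe A and 0.91 ± 0.75 (95% confidence interval -0.70 to 2.51; limma adjusted p = 0.677) on probe B. The shifts at 50 ng/L were 0.33 and 0.40 (limma adjusted p = 0.999 for both). The intervals at 250 ng/L are wide and include both no change and the shift measured on probe C. The difference between the shifts of C and of A or B was not tested.

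The delta-5/delta-6 fatty acid desaturase (bases 14 to 64 of contig An_u_9096) introduces the double bonds that lead to arachidonic and eicosapentaenoic acid. Its levels were -1.05, 0.70, -1.49, -0.82 and -0.90 in control, 0.09, -0.06, 0.39, 0.45 and 0.10 at 50 ng/L, and 1.50, 0.29, -0.87, 0.77 and 0.73 at 250 ng/L. Control replicate 2 lay above all arrays of 50 ng/L, and the other 4 controls lay below them all. At 250 ng/L replicate 3 lay among the low controls, replicate 2 lay below control replicate 2 only, and the other 3 arrays lay above all controls. The shift was 1.20 ± 0.42 at 250 ng/L (2.29-fold; 95% confidence interval 0.30 to 2.09; limma adjusted p = 0.191) and 0.90 ± 0.42 at 50 ng/L (1.87-fold; 95% confidence interval 0.01 to 1.80; limma adjusted p = 0.999), both against control. By slide, the shift at 250 ng/L was 0.48 within slide 1 and 1.83 within slide 2, and that at 50 ng/L was 0.18 within slide 1 and 1.39 within slide 2. The controls of slide 1 were at -1.05 and 0.70 (replicate 2), and a difference between the slides was not tested. Elongation of very long chain fatty acids protein 3, an elongase of saturated and monounsaturated chains, was well above background on 0 of 15 arrays (levels of -9.11 to -7.23; bases 692 to 751 of contig An_u_9769).

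Counted together, 1 of the 8 tested probes passed an adjusted p of 0.05 at 250 ng/L against control, where 2.7% of all 6145 probes did so in either direction. At 50 ng/L against control the count was 0 of 8, beside 0.553% of all probes, and at 250 ng/L against 50 ng/L it was 0 of 8, beside 1.09%. At an unadjusted limma p of 0.05, 4 members were higher at 250 ng/L and 2 at 50 ng/L, both against control, and 2 at 250 ng/L against 50 ng/L, beside 6.22%, 2.51% and 4.51% of all probes. The 4 were both acetyl-CoA synthetase probes, desaturase C and the delta-5/delta-6 desaturase, the 2 at 50 ng/L were the desaturases among them, and the 2 between the doses were the synthetase probes. A shift of 2-fold or more upward was seen in 5 of 8 members at 250 ng/L and 2 of 8 at 50 ng/L against control, beside 5.22% and 3.32% of all probes, and in 2 of 8 between the doses, beside 3.34%. The shift was above 0 in 7 of 8 members at 250 ng/L (44.8% of all probes) and in 8 of 8 at 50 ng/L (49.1%). Between the doses it was above 0 in 7 of 8 (44.7%). At 50 ng/L the 8 include acetyl-CoA carboxylase 1 at 0.00, which was below 0 in 10 of 26 other processing choices or array selections. Within slide 1 the shifts of synthetase B and A at 50 ng/L were below 0 (-0.02 and -1.0). Within slide 2 those of carboxylase 1 and desaturases A and B were below 0 (-0.30, -0.44 and -0.33). The other members were above 0 within each slide. The median shift of the 8 was 1.11 at 250 ng/L and 0.47 at 50 ng/L against control and 0.58 between the doses, where the medians over all probes were -0.05, -0.01 and -0.05. In no comparison did a member's groups lie fully apart (0 of 8 in each), as they did for 4.41% of all probes at 250 ng/L and 1.2% at 50 ng/L against control and 2.93% between the doses. The comparisons of 50 and 250 ng/L share their 5 control arrays, so these counts do not stand for separate evidence, and the probes of 1 gene are not independent.

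**Figure D2:**
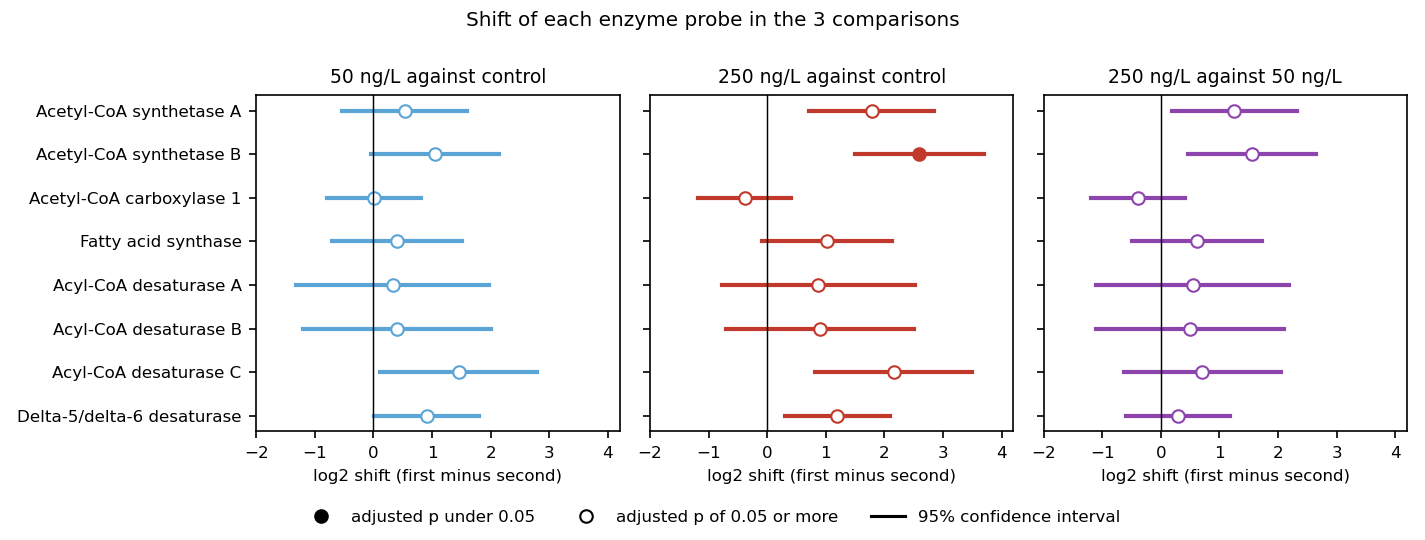
Log2 shift of each tested probe with its 95% confidence interval in the 3 comparisons, the first-named group minus the second; a filled point has a limma adjusted p under 0.05. The single filled point is acetyl-CoA synthetase B at 250 ng/L against control (2.60), and acetyl-CoA carboxylase 1 alone lies below 0 there (-0.39).

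The median SD over the 8 members was 1.02 in control, 0.67 at 50 ng/L and 1.02 at 250 ng/L, beside medians over all probes of 0.46 in control, 0.43 at 50 ng/L and 0.42 at 250 ng/L. In control and at 250 ng/L all 8 members had an SD above the median of all probes, and at 50 ng/L 5 of 8 did; fatty acid synthase (0.19), the delta-5/delta-6 desaturase (0.22) and acetyl-CoA carboxylase 1 (0.29) lay below it. Replicate 1 of 250 ng/L was the highest of its group on 7 of the 8 probes and the lowest on the eighth, acetyl-CoA carboxylase 1. Control replicate 2 held the same places in the control group, the highest on 7 of 8 probes and the lowest for acetyl-CoA carboxylase 1.

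The members' levels were also compared with each other across the 15 arrays after the mean of each group was subtracted. There were 28 pairs, tested with 100000 permutations of the arrays within groups and Benjamini-Hochberg adjustment over the pairs. By Pearson's r 11 passed, and by rank fewer did. Desaturases A and B had r = 0.99 (Spearman's rho = 0.97; permutation p = 1e-05, the smallest these permutations can give, adjusted p = 0.00028; p for rho = 9e-05), with 0.99 within each slide. That is closer than the 2 probes on the single acetyl-CoA synthetase contig, which had r = 0.85 (rho = 0.82; permutation p = 0.00129 and 0.00158; adjusted p = 0.01 and 0.0111), with 0.92 within slide 1 and 0.69 within slide 2. Desaturase C had r = 0.43 with A and 0.48 with B (permutation p = 0.119 and 0.0962; adjusted p = 0.195 and 0.168; rho = 0.30 and 0.35).

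Desaturase C and the delta-5/delta-6 desaturase had r = 0.90 (rho = 0.85; permutation p = 0.00131 and 0.00073; adjusted p = 0.01 and 0.0102). It was 0.98 within slide 1 and 0.47 within slide 2, and 0.73 without the 2 arrays farthest from the median of C. Acetyl-CoA synthetase B had r = 0.81 with desaturase C and 0.79 with the delta-5/delta-6 desaturase (permutation p = 0.00257 and 0.00179; adjusted p = 0.0109 and 0.01; rho = 0.68 and 0.70). By rank neither of these pairs passed after adjustment (permutation adjusted p = 0.0644 for both). Their r was 0.92 and 0.87 within slide 1 and 0.47 and 0.54 within slide 2. Fatty acid synthase had r = 0.72 with desaturase C and 0.73 with the delta-5/delta-6 desaturase (permutation p = 0.0129 and 0.0161; adjusted p = 0.036 and 0.0411), though by rank (rho = 0.44 and 0.60) neither passed after adjustment (adjusted p = 0.331 and 0.168). These r were 0.84 and 0.82 within slide 1 and 0.18 and 0.35 within slide 2.

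Acetyl-CoA carboxylase 1 had a negative r with each of the 7 other members, and 2 of these 7 pairs passed by Pearson's r and 0 by rank. Its r was -0.79 with fatty acid synthase (rho = -0.66; permutation p = 0.00607 and 0.0339; adjusted p = 0.0212 and 0.119), -0.91 within slide 1 and -0.38 within slide 2. With the delta-5/delta-6 desaturase it was -0.82 (rho = -0.60; permutation p = 0.00272 and 0.0414; adjusted p = 0.0109 and 0.129), -0.92 within slide 1 and -0.66 within slide 2. Without the 2 arrays farthest from the median of fatty acid synthase the first value was -0.69, and without the 2 farthest from the median of acetyl-CoA carboxylase 1 the second was -0.70. By slide, all 7 values were negative within slide 1 and 3 of 7 within slide 2, where r was 0.74 with desaturase A and 0.73 with B.

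**Figure D3:**
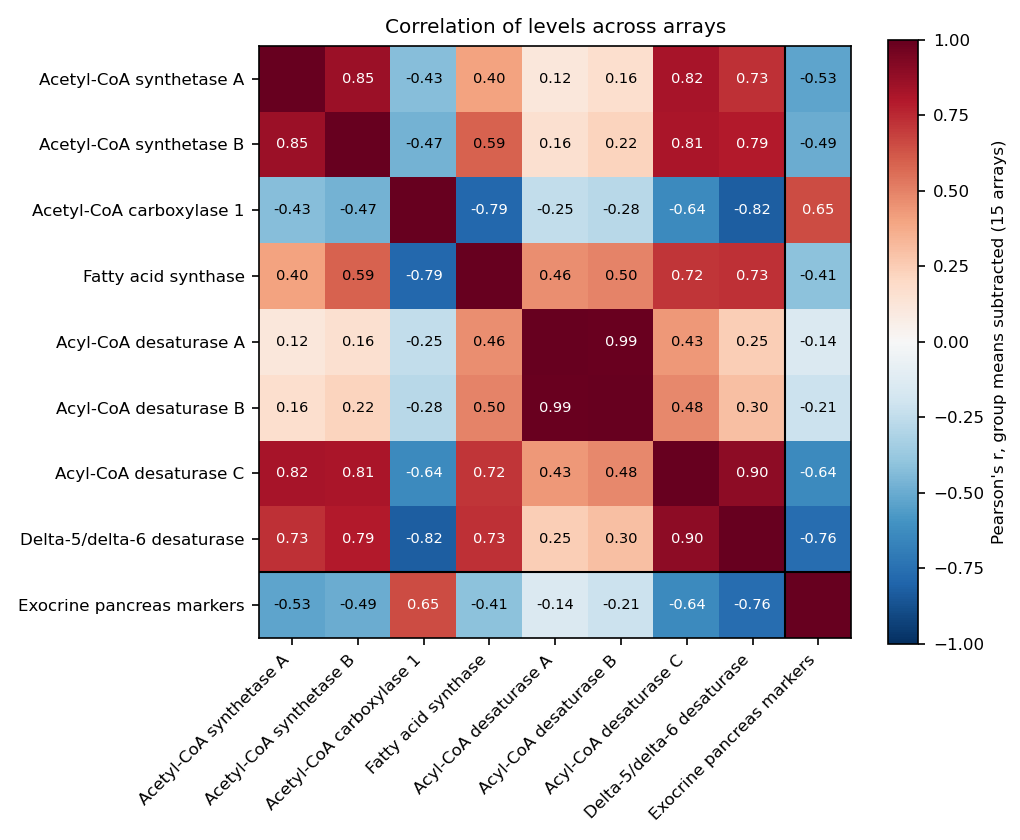
Pearson's r between the levels of the tested probes over 15 arrays, with each group's mean subtracted, and, in the last row and column, with the mean level of 21 exocrine pancreas genes. Desaturases A and B form a pair (0.99), fatty acid synthase, acetyl-CoA synthetase, desaturase C and the delta-5/delta-6 desaturase are positive with each other (0.40 to 0.90), and acetyl-CoA carboxylase 1 is negative with every other member (-0.82 to -0.25), 2 of the 7 pairs passing the adjusted test. Fatty acid synthase with acetyl-CoA synthetase A (0.40) and B (0.59) did not pass that test (permutation adjusted p = 0.245 and 0.0731).

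Digestive enzymes of the exocrine pancreas, tissue that lies in and around the liver in many fish, were present on every array, with all 21 marker genes well above background. Their mean level ran from -1.23 to 2.56 in control, from 0.69 to 3.61 at 50 ng/L and from 1.20 to 4.08 at 250 ng/L. Of the 21 genes, 0 passed the limma test in any of the 3 comparisons, adjusted or not. Against control, 19 had a shift above 0 at 250 ng/L (44.8% of all probes) and 20 at 50 ng/L (49.1%). Their median shift was 1.05 at 250 ng/L and 1.13 at 50 ng/L, beside 1.11 and 0.47 for the 8 members. Control replicate 2, with the lowest value of all (-1.23), was the array with the highest control levels of acetyl-CoA synthetase, fatty acid synthase and the desaturases. Replicate 3 of 250 ng/L, with the highest value (4.08), had the lowest levels of its group for acetyl-CoA synthetase A, desaturase C and the delta-5/delta-6 desaturase and the highest for acetyl-CoA carboxylase 1. With group means subtracted, the members' r with the pancreas genes ran from -0.76 for the delta-5/delta-6 desaturase (rho = -0.64; permutation p = 0.00438 and 0.0172) to 0.65 for acetyl-CoA carboxylase 1 (rho = 0.52; permutation p = 0.0122 and 0.0679). None of 16 relations, 8 with these genes and 8 with array brightness, passed after adjustment by Pearson's r (smallest adjusted p = 0.0578). The r of the delta-5/delta-6 desaturase was -0.87 within slide 1, -0.48 within slide 2, -0.73 without the 2 arrays farthest from the median once group means were subtracted (control replicate 2 and 50 ng/L replicate 1), and -0.52 without the arrays of the lowest and highest pancreas level (control replicate 2 and 250 ng/L replicate 3). Without those last arrays acetyl-CoA synthetase B went from -0.49 to -0.11. For fatty acid synthase, synthetase B and desaturases A, B and C, r was -0.85 to -0.34 within slide 1. Within slide 2 it was above 0 for each of them, at 0.47, 0.08, 0.45, 0.40 and 0.07. Synthetase A was at -0.69 within slide 1 and -0.16 within slide 2.

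Without control replicate 2 and replicate 3 of 250 ng/L, a choice made after seeing the data, limma gave calls for 4 of the 8 members at 250 ng/L against control, beside 2.95% of all probes. The shifts were then 3.25 for acetyl-CoA synthetase B, 2.44 for A, 3.12 for desaturase C and 1.89 for the delta-5/delta-6 desaturase (limma adjusted p = 0.000469, 0.0059, 0.000824 and 0.000633). The delta-5/delta-6 desaturase was also called at 50 ng/L against control, with a shift of 1.26 (limma adjusted p = 0.0383; 1 of 8 members, beside 0.635% of all probes). Leaving out control replicate 2 alone gave the same 4 calls at 250 ng/L, with shifts of 3.06, 2.17, 2.75 and 1.55 (2.82% of all probes called), and so did leaving out 250 ng/L replicate 3 alone (2.64%). Control replicate 2 was the highest control on each of these 4 probes. At 250 ng/L, replicate 3 was the lowest on synthetase A, desaturase C and the delta-5/delta-6 desaturase. On synthetase B it was at -3.10, where the lowest was also -3.10. Leaving out the highest control or the lowest treated array raises a shift by construction, so these calls are not separate support. The part of pancreatic RNA in the differences between groups was not tested. Markers of other cell types gave 0 calls among 9 hepatocyte genes and among 16 tested muscle genes in the 3 comparisons by limma, with 0 and 3 at an unadjusted p of 0.05 at 250 ng/L. Among 7 tested hemoglobin genes 1 was called at 250 ng/L against control, beside 2.7% of all probes in either direction. It was the alpha-D chain, lower than in control (shift of -1.45, limma adjusted p = 0.0373), and 2 of 7 genes passed an unadjusted p of 0.05. The second of these, the embryonic alpha chain, had a shift of 1.15 (limma adjusted p = 0.0693), and 0 probes carried the adipocyte names searched. The share of all probes passing unadjusted at 250 ng/L against control was counted upward only (6.22%). The brightness of an array had r = -0.66 with acetyl-CoA synthetase A (rho = -0.70; permutation p = 0.00722 and 0.00996; adjusted p = 0.0578 and 0.128), the strongest of its 8 relations, which ran up to 0.32. With synthetase B, the called probe, it had r = -0.54 (rho = -0.60; permutation p = 0.0222 and 0.0239; adjusted p = 0.089 and 0.128). That r was -0.45 within slide 1 and -0.77 within slide 2. The part of brightness was not tested either.

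**Figure D4:**
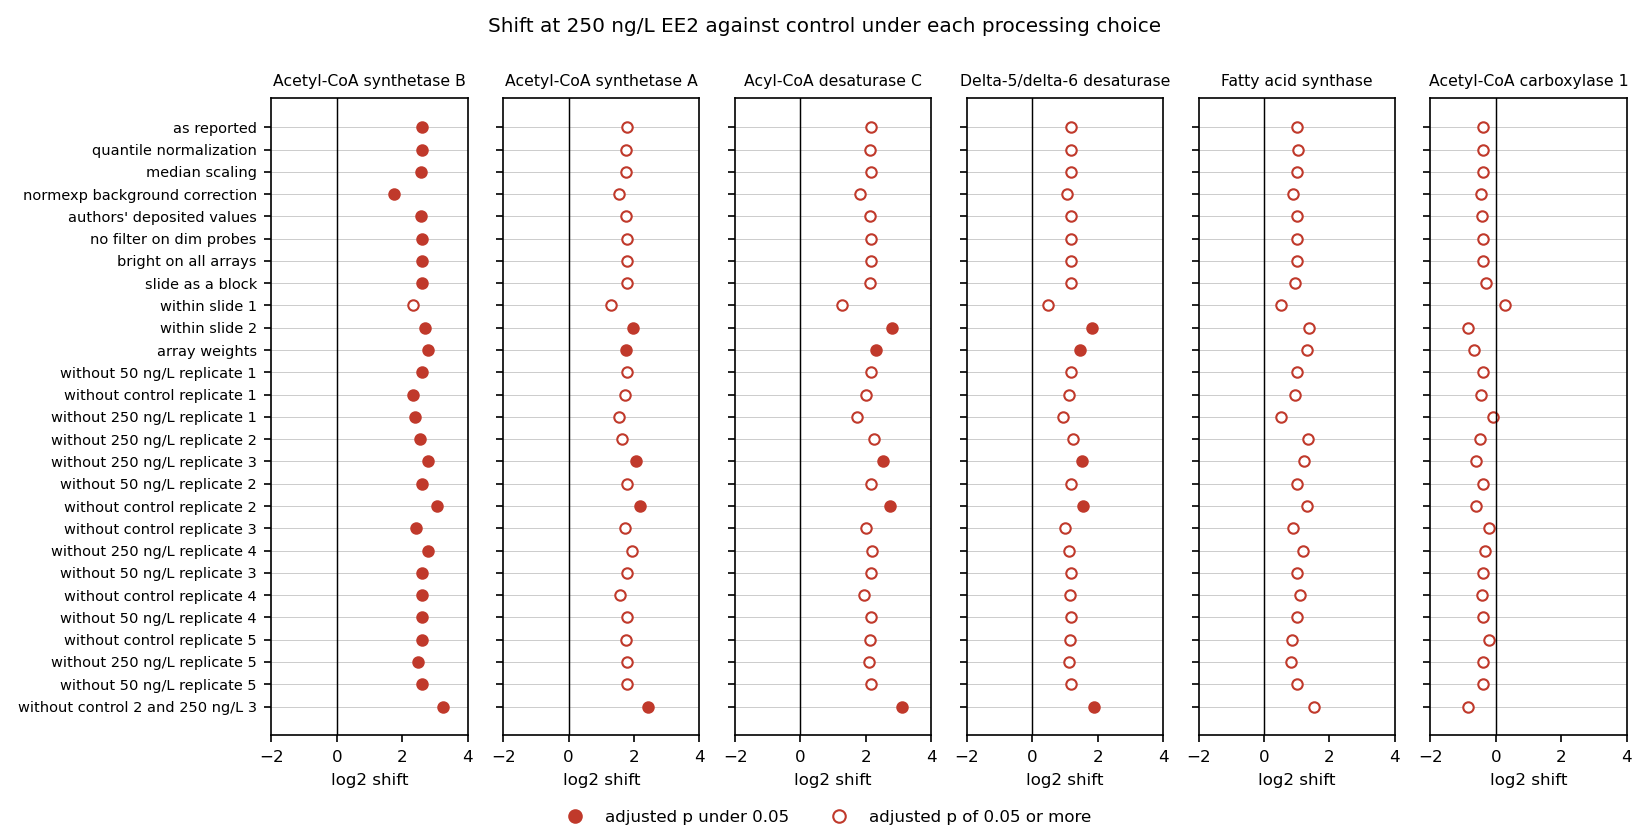
Log2 shift at 250 ng/L against control for 6 of the tested probes as reported and under each of 26 other processing choices or array selections; a filled point has a limma adjusted p under 0.05. Acetyl-CoA synthetase B is filled in all but the comparison within slide 1 (2.33), and acetyl-CoA synthetase A, desaturase C and the delta-5/delta-6 desaturase are filled in 5 of 26 each.

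Genes related to these enzymes by supply, use, regulation or neighbouring steps were taken from 4 lists by name. Of 9 genes that supply NADPH or cytosolic precursor, 1 was called at 250 ng/L against control, beside 2.7% of all probes in either direction. It was cytoplasmic isocitrate dehydrogenase [NADP], which yields NADPH in the cytosol, and it was lower. Its mean level was 2.21 ± 0.21 at 250 ng/L and 2.96 ± 0.37 in control (SD, n = 5 each), a shift of -0.75 ± 0.19 (SE; limma adjusted p = 0.0488). At 50 ng/L the mean was 2.20 ± 0.12 and the shift -0.76 ± 0.19 against control (limma adjusted p = 0.146), with all 5 arrays below all 5 controls. The groups lay fully apart, in either direction, for 1.2% of all probes in that comparison. The call at 250 ng/L stood close to the threshold and was kept in 5 of 26 alternatives. The median shift of the 9 genes was 0.07 at 250 ng/L and 0.11 at 50 ng/L against control. At 250 ng/L 5 of the 9 had a shift above 0, beside 44.8% of all probes. The largest was 1.16 ± 0.65, for mitochondrial NADP-dependent malic enzyme (limma adjusted p = 0.489). A shift of 0.50 was measured for 6-phosphogluconate dehydrogenase (limma adjusted p = 0.486). Glucose-6-phosphate 1-dehydrogenase, the first enzyme of the pentose phosphate pathway, had 0.47 (limma adjusted p = 0.654).

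Of 8 tested genes of fatty acid activation and glycerolipid assembly, limma called 0 in any of the 3 comparisons, with a median shift of -0.14 at 250 ng/L and 0.14 at 50 ng/L against control. The smallest p-values at 250 ng/L were those of monoacylglycerol O-acyltransferase 1 and diacylglycerol O-acyltransferase 1, enzymes that add acyl chains on the way to triglyceride, with shifts of -0.80 and 0.83 (limma adjusted p = 0.26 and 0.363). Next came acyl-CoA-binding protein, a carrier of acyl-CoA, at -0.26 (limma adjusted p = 0.758).

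Among 7 tested regulators limma called 0 in any comparison, with medians of 0.32 at 250 ng/L and 0.24 at 50 ng/L against control. Insulin receptor substrate-2, a docking protein of insulin signalling, had a shift of 1.67 ± 0.77 at 250 ng/L (limma adjusted p = 0.351). The beta-1 and beta-2 subunits of AMP-activated protein kinase, which phosphorylates acetyl-CoA carboxylase, had shifts of 0.48 and 0.47 (limma adjusted p = 0.529 and 0.53); a second probe for beta-1 had 0.19. Of 6 partners of elongation and desaturation limma called 0 in any comparison, with medians of -0.33 at 250 ng/L and -0.05 at 50 ng/L against control. Mitochondrial trans-2-enoyl-CoA reductase had a shift of -0.49, mitochondrial acyl carrier protein 0.56 and mitochondrial malonyl CoA-acyl carrier protein transacylase -0.49 at 250 ng/L (limma adjusted p = 0.328, 0.333 and 0.354). By name these 3 are mitochondrial, while the desaturases act in the endoplasmic reticulum, so they are partners only in the sense of the list. The list's median of -0.33 includes them. At an unadjusted limma p of 0.05 against control, those 3 mitochondrial genes passed at 250 ng/L, as did both acyltransferases and insulin receptor substrate-2. These were 3 of 6 genes listed as partners, 2 of 8 genes of glycerolipid assembly and 1 of 7 regulators. At 50 ng/L the 2 kinase subunits passed among the regulators, and 0 genes did in the lists of glycerolipid assembly and of partners. For beta-1 this rests on its brightest probe (shift of 0.64), while its second probe had 0.09 at that dose. The brightest probes of both subunits were lowest on control replicate 1 (-2.28 and -1.76) and highest on 250 ng/L replicate 1 (-0.45 and 0.09). Whether they measure separate transcripts was not tested, so the 2 may not be independent. The share of all probes passing unadjusted in either direction was not counted. Upward alone it was 6.22% at 250 ng/L and 2.51% at 50 ng/L, while several of these genes were lower.

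**Figure D5:**
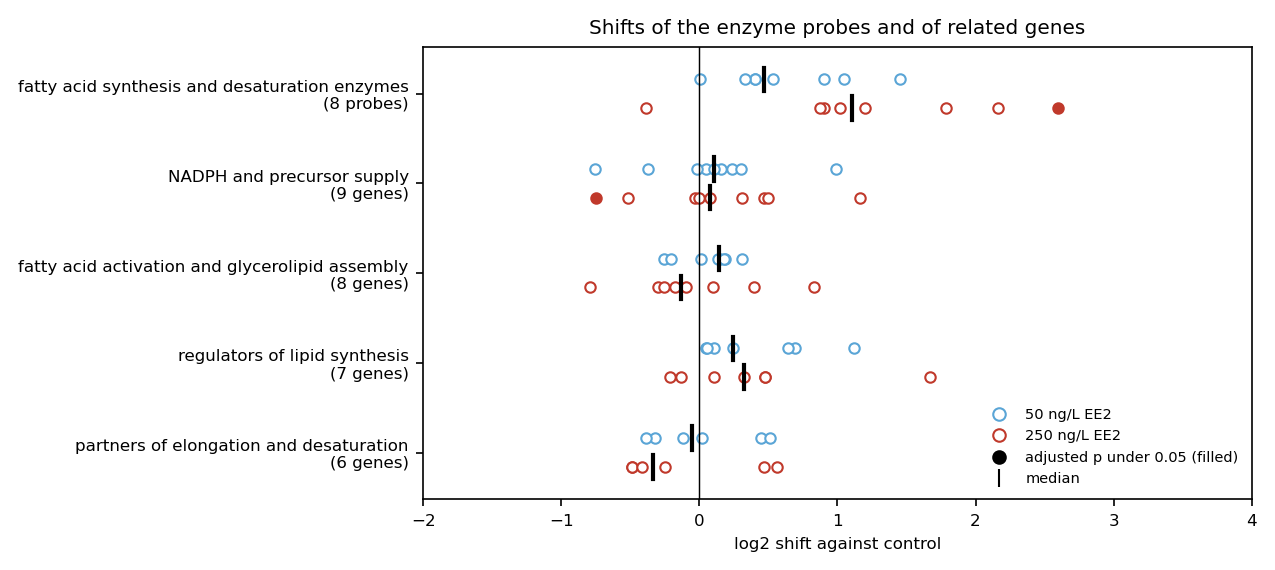
Log2 shift against control of the 8 tested enzyme probes and of the genes in 4 related lists (1 probe per gene), at 50 ng/L and at 250 ng/L; a filled point has a limma adjusted p under 0.05 and a black bar marks the median. The enzyme probes have medians of 0.47 and 1.11, while the medians of the other lists lie between -0.33 and 0.32. The enzymes are shown by probe, so they do not match the lists in unit. By the lists' rule of the brightest probe, acetyl-CoA synthetase would be shown on probe A, which was not called at 250 ng/L (limma adjusted p = 0.0857).

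The level of fatty acid synthase over the 15 arrays was compared with that of every tested probe with a value on all arrays (6139 probes), as a description without a test. The median r was -0.07, and 9 probes exceeded 0.8, fatty acid synthase itself among them. By name, the closest were 5-formyltetrahydrofolate cyclo-ligase (r = 0.85), mannose-6-phosphate isomerase (0.83), the homolog of CTF18, a chromosome transmission fidelity factor (0.83), and 6-phosphogluconate dehydrogenase (0.82), an NADPH-yielding enzyme of the pentose phosphate pathway. The 26S proteasome non-ATPase regulatory subunit 1 (0.81), selenoprotein H (0.80), tyrosine aminotransferase (0.78) and triosephosphate isomerase (0.77) followed. With group means subtracted these values were 0.71 to 0.91, and none of the 8 genes passed the adjusted test in any comparison. Among the members the closest to fatty acid synthase on the same measure was the delta-5/delta-6 desaturase (0.77), and acetyl-CoA carboxylase 1 was at -0.79.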

How the data were processed

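The signals deposited by the authors are intensity values from Agilent Feature Extraction 10.7.1.1, per the file headers, which subtracts background, detrends each spot and leaves arrays unnormalized against each other. The authors also deposited a table of log2 values (column medians of 7.66 to 7.70; r with the array's own log2 signal of 0.998 to 1.00). The sources used here do not state how it was made, so it was only an alternative.

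Spots marked as controls or outliers (0 to 29 outliers on an array) and 5 custom control probes were removed. Signals were put on the log2 scale, lowered by their array's 75th percentile and averaged over the 2 spots of a probe, with no pseudocount. No spot was saturated (0 flags on every array). Probes had to exceed background clearly on 5 or more of 15 arrays to be tested, which 6145 of 7152 did. The fit gave each group its mean, over all 15 arrays together, with limma 3.58.1 in R 4.3.3 (12 residual degrees of freedom), with Benjamini-Hochberg adjustment over all tested probes in each comparison and a threshold of 0.05. Intervals are 95% confidence intervals from that fit, and 5 arrays per group limit their precision. The fit was tested on simulated data before use. Gene names come from the array's design and may be out of date; no positions on a genome are given.

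The members, the lists of related and marker genes and the tests were chosen with earlier results of these data known. By the naming rule, values in every array are given for the brightest tested probe of each gene name and for every called probe, and for a further probe that differs in call. From each related list the called genes are named, or otherwise the 3 genes with the smallest p at 250 ng/L, 1 probe per gene name (the brightest). For likeness to fatty acid synthase the rule took the 8 named genes with the highest r. Glucose-6-phosphate 1-dehydrogenase, desaturase C, the hemoglobin chains and the account of which arrays were highest or lowest in several members were picked after their values were seen. The 26 alternatives were other normalizations, background correction, filters, slide as a block or within slides, array weights and leaving out arrays.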

Additional observations from a re-analysis of the deposited data

Results flagged for a closer look

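In groups of 5 arrays, a level was set apart when its gap to the nearest array, divided by the range of the group, exceeded 0.71, the 95% critical value of Dixon's test. Among 30 groups (10 probes in 3 groups each) this held for 2, and chance alone gives about 1 in 20. The first was acyl-CoA desaturase C in control replicate 2, at a level of -1.02, with a ratio of 0.779. The other 4 controls lay between -4.29 and -3.57. The second was acyl-CoA desaturase B in 250 ng/L replicate 1, at 4.09, with a ratio of 0.782. On that probe the other 4 arrays of the dose lay between 1.03 and 1.70.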

How the results depend on the processing

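The call of acetyl-CoA synthetase B at 250 ng/L against control was kept in 25 of 26 alternatives. Its shifts in these were 1.76 to 3.25, with limma adjusted p of 0.000469 to 0.0309. Leaving out 1 array its shift ran from 2.33 to 3.06, so the lowest shift came from another choice. The call was therefore steadier than the size of the fold. The call was lost within slide 1 (2.33, limma adjusted p = 0.416, from 3 against 2 arrays). Within slide 2 it was kept (2.70, limma adjusted p = 0.0291, from 2 against 3 arrays). The controls of slide 1 were at -6.0 and -3.09. In the same comparison, acetyl-CoA synthetase A, desaturase C and the delta-5/delta-6 desaturase passed within slide 2 and with array weights. They also passed without control replicate 2, without 250 ng/L replicate 3 and without both, which raises their shifts by construction.

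Some shifts that had not passed the threshold turned sign, and the cause was not tested. At 50 ng/L against control, acetyl-CoA carboxylase 1 (0.00 as reported) was at -0.0169 with median scaling, -0.0294 with normexp, -0.30 within slide 2, -0.23 with array weights and -0.23 without the 2 arrays farthest apart in pancreas genes. Leaving out 1 array it ran from -0.23 to 0.19. Within slide 1, acetyl-CoA synthetase B and A were at -0.0162 and -1.0. Desaturases B and A were at -0.33 and -0.44 within slide 2 and at -0.28 and -0.40 with array weights, and from -0.004 to 0.749 and from -0.20 to 0.75 leaving out 1 array. At 250 ng/L against control, acetyl-CoA carboxylase 1 was at 0.27 within slide 1 and mitochondrial malonyl CoA-acyl carrier protein transacylase at 0.0825 within slide 2. At 250 ng/L against 50 ng/L, desaturases B and A were at -0.14 and -0.30 within slide 1, and B ran from -0.0526 to 0.91 leaving out 1 array.

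Over all probes, 34 were called at 50 ng/L and 166 at 250 ng/L against control, and 67 between the doses. Within slide 1 the counts were 3, 42 and 0, and within slide 2 109 at 250 ng/L against control and 0 between the doses. Array weights called 330 at 250 ng/L, and normexp 41 between the doses. Leaving out 1 array gave 22 to 36, 122 to 191 and 34 to 66; the lowest of these were without control replicate 3 at 50 ng/L and without 50 ng/L replicate 5 between the doses. Cytoplasmic isocitrate dehydrogenase [NADP] kept its call in 5 of 26 alternatives, with shifts of -1.13 to -0.46. Insulin receptor substrate-2 passed within slide 2 (3.24, limma adjusted p = 0.0337). Normexp moved the median of all probes to 0.11 at 250 ng/L and 0.19 at 50 ng/L against control and to -0.14 between the doses.

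No paired analysis was possible because the labels give no replicate numbers. Signal over background limited 2 members, which were well above background on 0 arrays.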
